A study of Mus musculus with 6 samples.

Results

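The immediate early and heat shock genes described here are 40 genes, chosen by name, of the 33697 genes counted in every library. They comprise 31 immediate early genes and 9 heat shock genes. By role the former were 8 members of the AP-1 family, 10 other transcription factors, 11 feedback regulators and other early response genes, and 2 matricellular genes. UMIs, the tags that mark single captured transcripts, were read in barcodes holding 2500 to 40000 UMIs from 1000 to 7500 genes, less than 10% of them mitochondrial, and were summed for each library and each class of cells. All 40 members were found by name in the feature lists, and their values were read from 102534 cells.

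The cells were TSLP-tdTomato+ cells of the intestinal lamina propria, sorted from C57BL/6 Flare-TSLP mice, which carry a tdTomato reporter at the Tslp locus. No treatment was labelled for any sample. Of the 6 libraries, 2 came from the proximal small intestine (proximal jejunum), 2 from the distal small intestine (SI), and the cecum and the large intestine gave 1 each. Every library pooled cells carrying 3 hashtag antibodies, and because no table pairs hashtags with mice, each library was counted as 1 sample. By the study's methods the mice were 8 to 12 weeks of age and of both sexes. Every sample carried the reporter, and the sort was set on reporter-positive cells. Cells passing an immune gate (53 to 432 per library) were still found, and the study's removal of clusters nearly free of tdTomato+ cells was not applied here. P values therefore measure the spread between libraries of pooled cells, and the cecum and the large intestine had no replicate.

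Immediate early genes are transcribed within minutes of a stimulus from factors already present in the cell. Fos, Jun, Egr and Klf proteins then carry the signal to later genes, while products such as Dusp1 and Zfp36 switch off the kinases and the messenger RNAs that started it. Heat shock genes encode chaperones that hold and refold proteins under stress and are switched on by heat shock factors. Both groups are known to rise while tissue is being dissociated. All 6 libraries were made after warm enzymatic digestion, so transcription in the tissue and transcription during digestion cannot be told apart in any value below.

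The libraries held 109675337 to 206827504 UMIs, and 11751 to 21299 cells of each were kept, with medians of 6772 to 9413 UMIs per cell. Classes were assigned by counting detected markers, and a class name stands for that gate alone. Fibroblasts (9330 to 17907 per library) needed Pdgfra and at least 6 of 8 markers, and lymphatic endothelial cells (LECs) at least 4 of 6. Subepithelial fibroblasts, gated on markers of subepithelial myofibroblasts and telocytes, and trophocytes, the crypt-associated fibroblasts, were subsets of the fibroblasts, each with at least 3 markers of its own and at most 1 of the other. Summed LEC markers lay at 15.6 to 142 CPM (UMIs of a gene scaled to a total of 1000000) in fibroblasts against 16210 to 21980 CPM in LECs, and no LEC or fibroblast marker was at 0 in its own class. Of the 8 subepithelial markers, 1 was at 0 in subepithelial cells of at least 1 library. Pairs of libraries shared 38 to 118 cell barcodes.

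The members took up a sizeable part of each transcriptome. In fibroblasts the 31 immediate early genes made up 1.17% and 1.07% of UMIs in proximal SI replicates 1 and 2. The distal SI replicates were at 1.52% and 1.01%, the cecum at 3.57% and the large intestine at 1.22%. The cecum thus stood apart while the other 5 libraries overlapped. In LECs the same genes made up 1.32% and 1.58%, 0.970% and 1.26%, 2.64% and 1.17% in the same order of libraries. Subepithelial fibroblasts had the lowest shares in the small intestine, at 0.207% to 0.416%, with cecal cells at 1.89% and large intestinal ones at 1.05%. Trophocytes ranged from 1.34% to 1.67% in the small intestine and reached 5.20% in the cecum and 1.92% in large intestinal cells. Pericytes were at 3.28% in distal SI replicate 2 (118 cells), 3.92% in cecal cells (62) and 3.94% in large intestinal ones (234), and blood endothelial cells were at 1.92% to 2.51% wherever at least 50 were found.

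The 9 heat shock genes divided the classes differently. They made up 0.166% to 0.210% of fibroblast UMIs in the small intestine but 0.450% to 0.886% of LEC UMIs, and the 2 classes did not overlap there. The mean share in small intestinal LECs was 0.619% ± 0.209 (SD, n = 4). The cecal heat shock shares were 0.522% (fibroblasts) and 1.18% (LECs), and the large intestinal ones 0.324% and 0.487%.

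Free RNA in the droplets carried these transcripts too. In barcodes with at most 100 UMIs the immediate early share was 1.36% to 1.73% in the small intestinal libraries, while the cecal library was at 3.65% and the large intestinal one at 1.47%. The share in small intestinal subepithelial fibroblasts lay below that of the free RNA of the same library in all 4 libraries. How much of the level in those cells was free RNA was not tested.

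**Figure D1:**
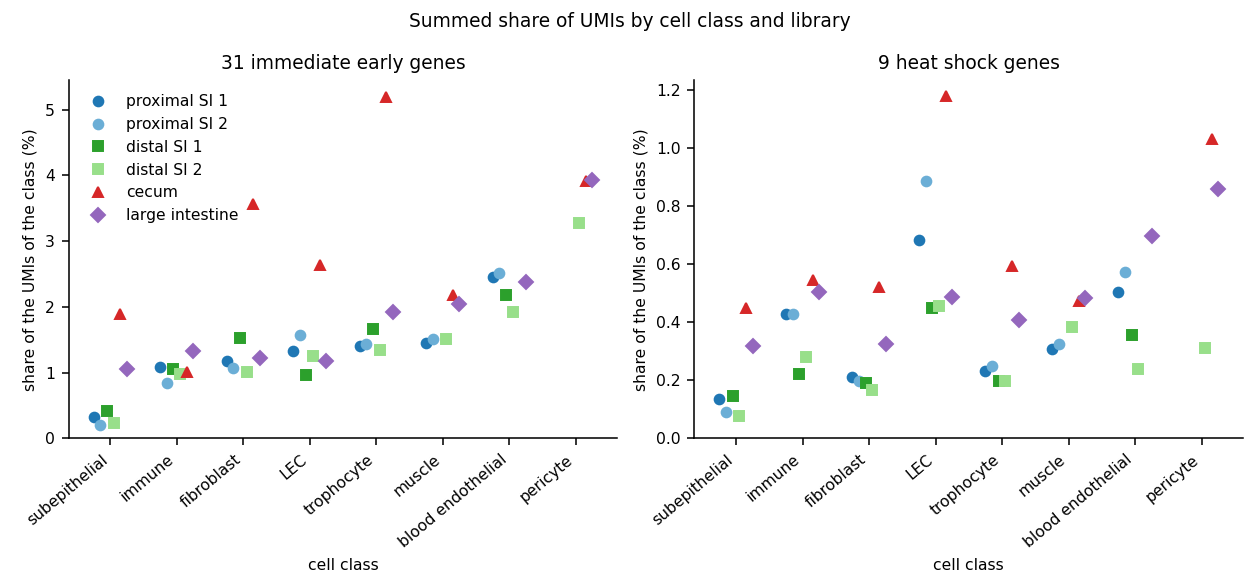
Share of all UMIs of a cell class (percent, vertical axes, starting at 0) taken by the 31 immediate early genes (left) and the 9 heat shock genes (right), with 1 point for each library with at least 50 cells of the class. Subepithelial fibroblasts of the 4 small intestinal libraries lie lowest on the left, at 0.207% to 0.416%, and the cecum lies highest in fibroblasts, trophocytes and LECs.

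The most abundant members in fibroblasts were Egr1, Jund and Fos. Egr1, a zinc finger factor induced by serum, gave 1724 and 1661 CPM in the proximal SI, 2016 and 1529 in the distal SI, then 3903 in cecal and 1066 in large intestinal fibroblasts. Jund, the most constant of the Jun proteins in many tissues, gave 1215, 1143, 1627, 1180, 4465 and 1905 CPM in the same order, and Fos, its partner in AP-1, gave 1234, 1121, 1714, 952, 3861 and 1275 CPM. For all of these the cecum was highest, and the large intestine lay inside the small intestinal range for Fos and outside it for Egr1 and Jund.

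Dusp1, a phosphatase that switches off MAP kinases, led the feedback regulators, at 686, 547, 810, 500, 2466 and 527 CPM in fibroblasts, and Ier2, another early response gene, ranged from 446 to 822 CPM in the small intestine, with cecal fibroblasts at 1959 CPM and large intestinal ones at 398 CPM. Klf4, a zinc finger factor, gave 414, 281, 449, 317, 1541 and 341 CPM. For these 3 genes, as for Fos, the cecum lay well above every other library. Of the matricellular genes Ccn1 averaged 372 ± 114 CPM (SD, n = 4) in small intestinal fibroblasts and Ccn2 averaged 35.8 ± 15.8 CPM.

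At the other end, 5 transcription factors were scarce. In small intestinal fibroblasts Fosl1 averaged 0.310 ± 0.102 CPM, Egr3 2.76 ± 0.848, Egr2 7.10 ± 1.20, Nr4a2 8.98 ± 1.96 and Myc 9.88 ± 1.96 CPM (SD, n = 4). Since the kit counts the 3′ ends of transcripts, CPM needs no correction for length, but capture differs between genes and the order of levels between genes is approximate.

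Hspa1a and Hspa1b, which encode the inducible 70 kDa chaperone, led the heat shock genes. In fibroblasts Hspa1a gave 398, 377, 419, 298, 1263 and 860 CPM, and Hspa1b gave 538, 475, 317, 327, 931 and 537 CPM. The genes lie next to each other on chromosome 17 (GRCm39, Hspa1b at 35175412-35178214 and Hspa1a at 35188166-35191132, both on the minus strand, 9951 bases apart) and are near-identical copies, so the division of UMIs between them is uncertain.

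**Figure D2:**
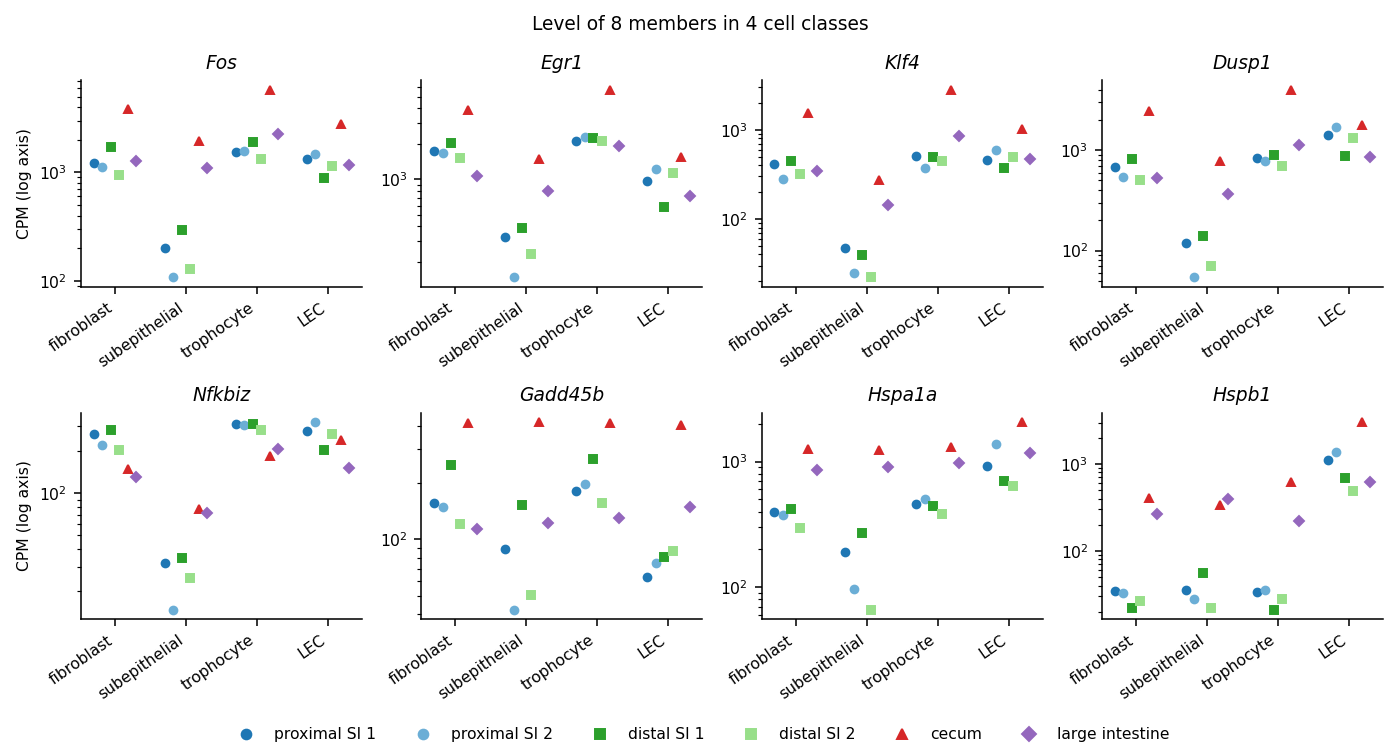
Level of 8 members (CPM, log axes) in fibroblasts, their subepithelial and trophocyte subsets and LECs, with 1 point for each library. Fos, Egr1, Klf4, Dusp1 and Nfkbiz of the 4 small intestinal libraries lie lowest in subepithelial cells, and Hspb1 lies between 492 and 1377 CPM in small intestinal LECs against 22.3 to 34.3 CPM in fibroblasts.

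To see how the heat shock genes are laid out, sequences upstream of their starts were read from RefSeq windows of GRCm38.p6, which run from 250 bases before to 50 after a start. Of the 40 members 31 had a window, 7 of them heat shock genes, and Egr2, Dnajb1, Hspd1 and Hsph1 had more than 1. A member was counted when any of its windows matched, while shares of all windows count each window. Fosl1, Egr1, Egr3, Ier2, Myc, Hsp90aa1, Hspa8, Ccn2 and Nfkbiz had none. The paired core of the heat shock element, searched on both strands as GAANNTTC, was found in 6 of the 7 (Dnajb1 was without it) and in 2 of 24 immediate early genes (Fosl2 and Jun), against 7.86% of all 32851 windows. The inverted form TTCNNGAA was found in Hsph1, Hspe1 and Hspd1, and in Egr2 and Ccn1, against 8.52% of windows. Hspe1 and Hspd1 start head to head, so their windows overlap, and these counts hold their shared sequence under both names. The 250 bases before the start are shown 5′ to 3′ for the 4 heat shock genes with the largest LEC minus fibroblast differences. These cores are in capitals (the inverted form in Hsph1). The GAANNTTC core counted for Hsph1 lies after its start, outside the stretch shown.
Hspa1a (chr17:34972157-34972406, minus strand): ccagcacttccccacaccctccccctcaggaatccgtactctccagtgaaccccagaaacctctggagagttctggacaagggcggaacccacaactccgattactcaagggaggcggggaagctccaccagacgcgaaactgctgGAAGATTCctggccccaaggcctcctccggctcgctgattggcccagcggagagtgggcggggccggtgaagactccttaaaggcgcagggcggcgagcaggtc
Hspa1b (chr17:34959239-34959488, minus strand): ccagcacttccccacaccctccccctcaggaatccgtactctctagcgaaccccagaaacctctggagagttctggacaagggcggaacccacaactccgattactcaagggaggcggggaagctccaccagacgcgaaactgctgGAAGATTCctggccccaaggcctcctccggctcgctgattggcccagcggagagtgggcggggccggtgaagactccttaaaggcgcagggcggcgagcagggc
Hspb1 (chr5:135887669-135887918, plus strand): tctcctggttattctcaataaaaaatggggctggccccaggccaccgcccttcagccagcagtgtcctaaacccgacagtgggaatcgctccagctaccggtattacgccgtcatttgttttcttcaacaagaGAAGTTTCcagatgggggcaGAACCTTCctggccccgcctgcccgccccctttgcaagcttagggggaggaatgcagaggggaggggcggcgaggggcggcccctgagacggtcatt
Hsph1 (chr5:149636337-149636586, minus strand): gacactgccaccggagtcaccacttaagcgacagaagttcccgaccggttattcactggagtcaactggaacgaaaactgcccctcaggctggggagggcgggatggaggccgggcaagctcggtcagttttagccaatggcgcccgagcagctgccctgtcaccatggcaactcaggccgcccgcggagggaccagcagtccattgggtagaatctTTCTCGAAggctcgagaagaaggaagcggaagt

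The Hspa1a and Hspa1b stretches differed at 3 of 250 bases, and Hspb1 held 2 cores. A match is a run of letters and not a measured binding site.

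LECs were compared with fibroblasts of the same libraries to ask which members mark one or the other stromal class. In LECs 8 of the 9 heat shock genes were higher, and Dnajb1, at a log2 difference of -0.03 (adjusted p = 0.926), was not. The immediate early genes went both ways, with 7 of 31 higher and 7 lower. Over all members 15 of 40 were higher and 7 lower (edgeR quasi-likelihood test on summed counts with library as a block, Benjamini-Hochberg over all genes), where 35.1% of the 18537 genes tested were higher and 38.8% lower. The median log2 difference was 0.25 for the members and -0.05 for all genes.

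Hspb1, a small heat shock protein that binds actin and unfolded proteins, had the widest gap. It gave 1113 and 1377 CPM in proximal SI LECs and 696 and 492 CPM in distal SI LECs, against 34.3, 33.2, 22.3 and 26.4 CPM in the fibroblasts of those libraries. The difference was 4.94 ± 0.21 on the log2 scale (SE, n = 4 libraries, edgeR adjusted p = 1.54e-06), and the classes did not overlap.

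Hsph1, a nucleotide exchange factor of the 70 kDa chaperones, gave 734, 862, 458 and 470 CPM in LECs against 108, 92.6, 62.8 and 77.4 CPM in fibroblasts. Its log2 difference was 2.90 ± 0.12 (adjusted p = 1.41e-06). Hspa1b gave 2081, 2862, 1016 and 1450 CPM against 538, 475, 317 and 327, a log2 difference of 2.13 ± 0.17 (adjusted p = 3.10e-05). In both genes each LEC sum lay above every fibroblast sum.

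Of the remaining heat shock genes Hspa1a was higher in LECs by 1.27 on the log2 scale, the constitutive chaperone Hspa8 by 1.11, Hsp90aa1 by 1.05, and the mitochondrial pair Hspe1 and Hspd1 by 0.76 and 0.67. Among the immediate early genes Egr3 (1.96), Ier3 (1.84), Klf6, Dusp1 (1.10), Fosl1 (0.78), Atf3 (0.73) and Klf2 (0.48) were higher in LECs. Egr3, Ier3 and Klf6 were higher in every small intestinal library. In distal SI replicate 1 the others went the other way, Fosl1 by -0.83, Klf2 by -0.28, Atf3 by -0.13 and Dusp1 by -0.07.

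Lower in LECs were Nr4a1, Nr4a3, Gadd45g, Gadd45b, Ier2, Egr1 and Socs3. Nr4a1, an orphan nuclear receptor, gave 25.2, 28.0, 15.0 and 25.02 CPM in LECs against 124, 146, 121 and 89.9 CPM in fibroblasts, a log2 difference of -2.28 ± 0.17 (edgeR adjusted p = 2.80e-05). Gadd45g, a stress sensor that acts on kinases and growth arrest, gave 24.7, 34.0, 37.3 and 39.4 CPM against 114, 114, 250 and 140, a difference of -2.06 ± 0.18 (adjusted p = 5.90e-05). Nr4a3, a nuclear receptor related to Nr4a1, gave 6.50, 10.8, 6.65 and 10.2 CPM against 24.99, 26.0, 15.1 and 17.8, a difference of -1.22 ± 0.18 (adjusted p = 7.93e-04). These 3 genes did not overlap between the classes. Fos itself differed by 0.01 (adjusted p = 0.983) and Junb by -0.05 (adjusted p = 0.858).

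Further genes of the same pathways, listed by name, moved in both directions as well. Of 30 other early response genes 18 were higher and 7 lower in LECs, led by the phosphatases Dusp2 (log2 difference 6.47) and Dusp5 (4.97) and by Arc, which was lower (-4.66). Of 20 other chaperones and their partners 12 were higher and 4 lower, with the small heat shock proteins Hspb8 (-3.46) and Cryab (-3.42) lower, opposite to Hspb1, and the cochaperone Stip1 higher (1.72). Distal SI replicate 1 held 800 LECs, the fewest of the 4 libraries. Without it 24 members were higher and 8 lower, beside 6394 and 7173 of 18626 genes. Fibroblasts without a clear hashtag carried more immediate early UMIs than those with one, at 1.32% against 0.702% in proximal SI replicate 1, and with clearly tagged cells alone 24 members were higher in LECs and 4 lower, beside 6032 and 6304 of 16666 genes.

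**Figure D3:**
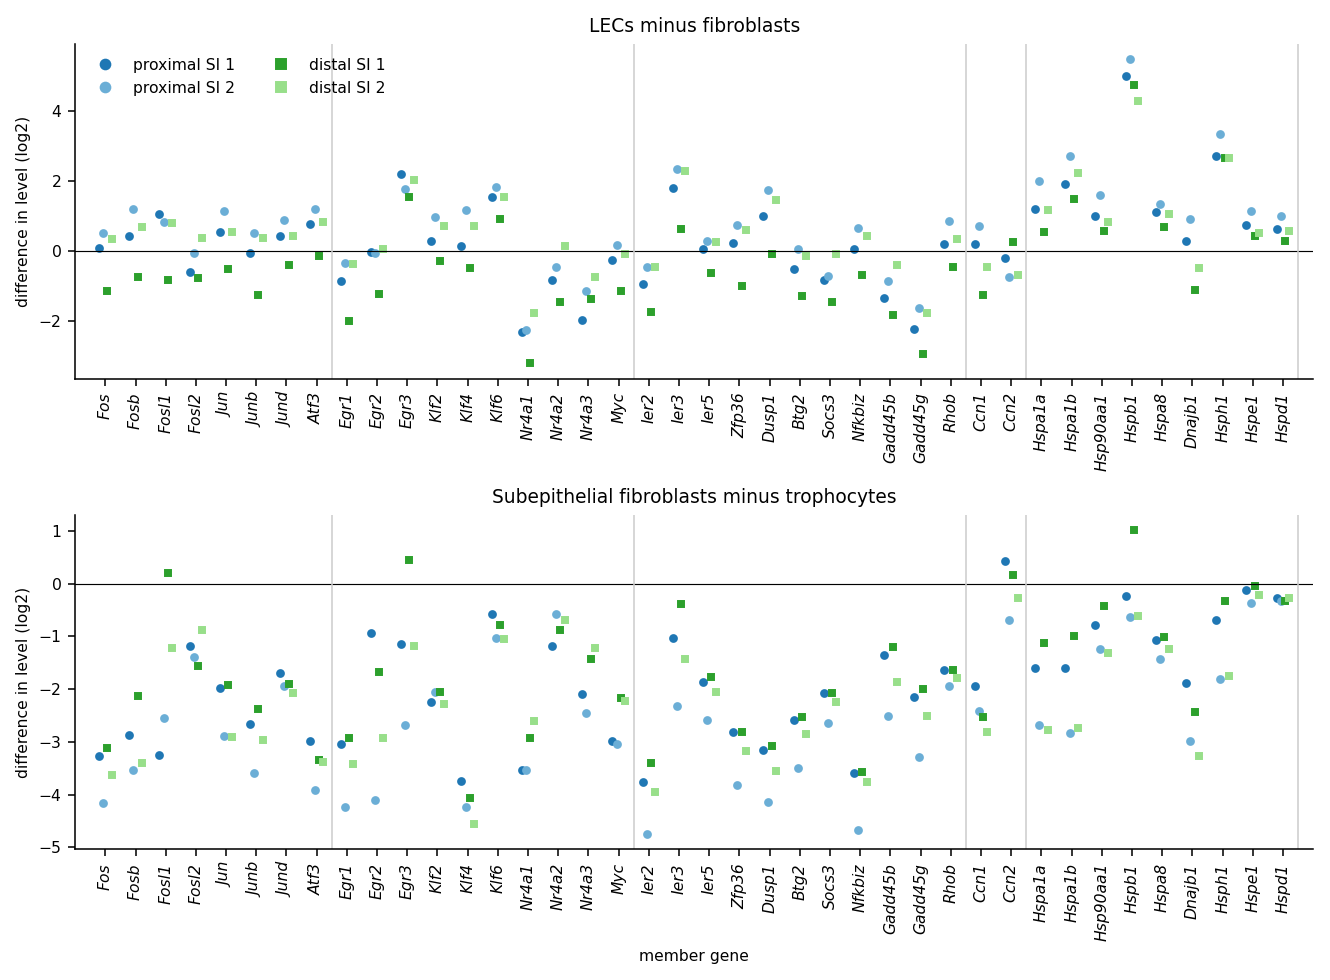
Difference in level of each member (log2 of the ratio of scaled counts, vertical axes) between LECs and fibroblasts (top) and between subepithelial fibroblasts and trophocytes (bottom), with 1 point for each of the 4 small intestinal libraries and grey lines between roles. Hspb1 stands highest at the top, at 4.29 to 5.49, and Klf4, at -4.56 to -3.75, is among the lowest at the bottom.

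Within the fibroblasts the subepithelial and trophocyte subsets were set against each other, to ask whether the members differ between the fibroblast types that the study told apart. Nearly the whole group was lower in subepithelial fibroblasts. Of the 39 members tested 36 were lower and 0 higher (edgeR, library as a block), against 27.9% of 16553 genes lower and 24.4% higher, and the median log2 difference was -2.10 for the members and -0.02 for all genes. No member was higher at an unadjusted p under 0.05, nor with limma-voom or DESeq2. Fosl1 was too scarce to be tested, and Ccn2 (-0.09, adjusted p = 0.714), Hspb1 (-0.12, adjusted p = 0.729) and Hspe1 (-0.13, adjusted p = 0.148) did not pass.

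Klf4 gave 47.7 and 24.5 CPM in subepithelial fibroblasts of the proximal SI and 39.1 and 22.3 CPM in the distal SI, against 511, 376, 499 and 444 CPM in trophocytes. The log2 difference was -4.09 ± 0.14 (SE, n = 4, edgeR adjusted p = 9.78e-07). Ier2 gave 61.6, 31.7, 115 and 48.8 CPM against 666, 697, 920 and 635, a difference of -3.91 ± 0.22 (adjusted p = 8.39e-06).

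Nfkbiz, a nuclear relative of the NF-kappaB inhibitors, gave 32.1, 14.8, 34.5 and 24.8 CPM against 310, 307, 312 and 284, a difference of -3.86 ± 0.19 (edgeR adjusted p = 5.02e-06). For Klf4, Ier2 and Nfkbiz the highest subepithelial sum lay well below the lowest trophocyte sum. Close behind came Fos (-3.48), Dusp1 (-3.42), Atf3 (-3.36), Egr1 (-3.34), Nr4a1 (-3.11) and Zfp36 (-3.10). All 7 tested AP-1 genes, all 10 other transcription factors and all 11 feedback regulators were lower, while the heat shock genes differed less, with 7 of 9 lower and a median of -1.12 against -2.84 for AP-1.

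Dusp1 and Zfp36, which encodes an RNA-binding protein that speeds the decay of early response messengers, show the letters through which such genes are known to be induced. Of the 24 immediate early genes with a window, Dusp1 and Btg2 held the cyclic AMP response element TGACGTCA, searched on both strands. Egr2 and Zfp36 held the CArG box bound by serum response factor. Of all windows 1.79% and 1.63% held them. The AP-1 site TGANTCA was found in 0 of the 31 members with a window, against 7.81% of all windows. The 250 bases before each start (RefSeq, GRCm38.p6) are given 5′ to 3′ with the cyclic AMP response element of Dusp1 and the CArG box of Zfp36 in capitals.
Dusp1 (chr17:26508473-26508722, minus strand): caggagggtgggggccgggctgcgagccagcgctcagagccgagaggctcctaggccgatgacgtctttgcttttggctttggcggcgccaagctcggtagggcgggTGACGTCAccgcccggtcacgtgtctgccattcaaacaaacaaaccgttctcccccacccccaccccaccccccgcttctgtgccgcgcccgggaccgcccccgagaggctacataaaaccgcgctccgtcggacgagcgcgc
Zfp36 (chr7:28379229-28379478, minus strand): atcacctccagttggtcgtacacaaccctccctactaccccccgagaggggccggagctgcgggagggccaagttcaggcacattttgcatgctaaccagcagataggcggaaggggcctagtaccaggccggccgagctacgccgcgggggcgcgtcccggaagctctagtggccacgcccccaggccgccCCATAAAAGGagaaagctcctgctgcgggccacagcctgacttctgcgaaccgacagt

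The other early response genes followed to a lesser degree, with 19 of 30 lower and 3 higher. Arc (-5.58) and Phlda1 (-2.67) were lower and Dusp4 (2.63) was higher. Of the other chaperones 12 of 20 were lower and 2 higher, led by Hspb8 (-5.36), Cryab (-2.15) and Bag3 (-1.42), all lower. Scaling to total UMIs in place of TMM moved the median of all genes to 0.23 and turned the split over all genes from 4034 higher and 4615 lower to 7137 higher and 2968 lower, but left 34 members lower and 0 higher. With 10% of each sum removed along the profile of free RNA 33 members were lower, beside 4423 of 15845 genes. The medians were -3.07 for the members and -0.02 for all genes. Subepithelial and trophocyte cells had similar depths, with medians of 7770 to 10951 and 7827 to 10159 UMIs per cell in the small intestine.

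Proximal and distal small intestine were compared next. No member passed in fibroblasts, 0 of 40 in either direction, against 0% of 20701 genes higher and 0.00483% lower in the proximal SI. At an unadjusted p under 0.05 the count was 5 members, beside 732 of the 20701 genes. Member counts were 0 with limma-voom and DESeq2 as well, beside 71 genes higher and 54 lower of 17891 with DESeq2. With the replicate number as a block they were 0 too, beside 162 genes higher and 112 lower of 19273. The fitted log2 differences of the members ran from -0.84 (Gadd45g) to 0.61 (Hspa1b), with 2 libraries a side.

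No member passed in LECs either, 0 of 40, against 0% of 15119 genes in each direction, but 15 members had an unadjusted p under 0.05, as had 468 of the 15119 genes, and the median log2 difference was 0.37 toward the proximal SI, with -0.01 for all genes. DESeq2 called 5 members higher in proximal LECs, beside 11 of 10429 genes, and limma-voom 0. With the replicate number as a block 1 member was higher, beside 24 of 15741 genes. The fitted log2 differences ran from -0.40 (Socs3) to 1.09 (Hspb1), and those of the heat shock genes from 0.28 (Hspe1) upward. Hspb1, at 1113 and 1377 CPM in proximal against 696 and 492 CPM in distal LECs, did not overlap, and neither did Hspa1b at 2081 and 2862 against 1016 and 1450 CPM, yet with 2 residual degrees of freedom both had an adjusted p of 1.00. The difference between the regional effects in LECs and in fibroblasts passed in 0 of 40 members and 0 of 19574 genes, with 5 members and 816 genes at an unadjusted p under 0.05.

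The large bowel, taken as the cecum and the large intestine together, was then compared with the small intestine. In fibroblasts 21 of 40 members were higher in the large bowel, 0 were lower and 19 did not pass (edgeR over 6 libraries, with the lone libraries assumed to vary like the small intestinal ones), against 15.1% of 19814 genes higher and 14.9% lower. The median log2 difference was 0.85 for the members and -0.03 for all genes. Higher were 8 of 9 heat shock genes, 5 of 8 AP-1 genes, 6 of 10 other transcription factors and 2 of 11 feedback regulators. DESeq2 called 32 members higher and 1 lower, beside 3331 and 3038 of 19814 genes. With the replicate number as a block these counts were 25 and 1, beside 3774 and 3805 genes. For that block the cecum and the large intestine, unnumbered in their labels, were set as replicate 1. Clearly tagged cells alone gave 32 members higher and 0 lower, beside 2555 and 2220 of 18570 genes.

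Hspb1 rose most. In fibroblasts it gave 406 CPM for the cecum and 268 CPM for the large intestine, against 22.3 to 34.3 CPM in the 4 small intestinal libraries, a log2 difference of 3.58 ± 0.11 (SE, edgeR adjusted p = 4.53e-04). Fosl1, an AP-1 partner induced late in the wave, gave 3.09 and 2.15 CPM against 0.186, 0.435, 0.304 and 0.317, a difference of 3.10 ± 0.33 (adjusted p = 0.00507). Nr4a2, an orphan nuclear receptor, gave 37.6 and 36.0 CPM against 8.64, 11.6, 6.86 and 8.81, a difference of 2.10 ± 0.14 (adjusted p = 0.00165). For these 3 genes both large bowel libraries lay above all 4 small intestinal libraries.

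The cecum and the large intestine differed in this. These libraries also had the lowest and the highest medians per cell of UMIs, 6772 and 9413, and of mitochondrial share, 2.02% and 2.88%. The part of depth and mitochondrial share in this contrast was not tested. On scaled counts, 39 of 40 members were higher in cecal fibroblasts than in every small intestinal library, where 35.4% of all genes were, and Nfkbiz was lower than in every one of them, as were 38.7% of all genes. In the large intestine 16 members were above, against 35.5% of all genes, and 7 were below (Fosl2, Egr1, Myc, Ier2, Zfp36, Nfkbiz and Gadd45b), against 37.5% of all genes. The median ratio of the members to the small intestinal mean was 2.58 for the cecum and 1.13 for the large intestine, where the medians of all genes were 0.970 and 0.978. Without the cecum 6 members were called higher, where 8.61% of all genes were, and without the large intestine 34, where 9.37% were. Leaving out a small intestinal library moved the counts of members and of genes together. Without proximal SI replicates 1 and 2 in turn, 9 and 11 members were higher, beside 1524 of 19638 and 1848 of 19615 genes. Without distal SI replicates 1 and 2 in turn, 36 and 32 members were higher, beside 4662 of 19683 and 4039 of 19642 genes.

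The makeup of the fibroblasts differed along the gut, with 4299 of 9712 fibroblasts subepithelial in the large intestine against 263 to 930 per small intestinal library, so each subset was also taken alone, an alternative added after the data had been seen. In trophocytes 37 of 40 members were higher in the large bowel (18.3% of all genes) and 1 lower (19.2%), and without the cecum 14 were higher (7.19%). In subepithelial fibroblasts 37 were higher (19.2% of all genes) and 0 lower, and 33 were higher without the cecum (12.9%). Of the 14881 genes tested in subepithelial fibroblasts of all 6 libraries 2367 were lower. The cells behind a gate were not alike along the gut, and the study's clustering split both subsets further. Some of its subepithelial clusters were enriched by region, and it placed trophocytes mainly in small intestinal samples. Summed subepithelial markers in the subepithelial gate lay at 1399 to 1969 CPM in the small intestine, 2635 CPM in the cecum and 4258 CPM in large intestinal cells, and summed trophocyte markers in their gate at 3570 to 3914, 3021 and 2992 CPM. A higher level within 1 kind of cell and other kinds of cells passing the gate therefore cannot be told apart. Cecal trophocytes exceeded all small intestinal libraries in 39 members (36.9% of all genes) and those of the large intestine in 27 (33.8%). They lay below them in 1 member in the cecum, Nfkbiz (41.9% of all genes), and in 4 members in the large intestine (40.1%). For subepithelial fibroblasts the counts were 38 (36.1%) and 38 (35%). The median member ratio in the latter was 5.24 for the cecum and 3.69 for the large intestine, against 3.36 and 1.51 in trophocytes. Of the 3449 cecal trophocytes 3144 carried only the minimum of 3 markers.

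Fos shows the contrast between the subsets. In subepithelial fibroblasts it gave 201, 108, 294 and 127 CPM in the small intestine, then 1936 CPM (cecum) and 1095 CPM (large intestine). In trophocytes it gave 1531, 1585, 1924 and 1329 CPM, then 5813 and 2242 CPM. The rise on the log2 scale was larger in subepithelial fibroblasts by 1.91 ± 0.33 (SE, edgeR adjusted p = 0.0134). That difference of effects passed in 12 of 40 members and 9.31% of 17202 genes. It was positive for Fos, Jun, Junb, Jund, Nr4a1, Ier5, Btg2, Socs3, Nfkbiz, Gadd45b and Dnajb1, and negative for Ccn2. The free RNA of the cecum was also richer in immediate early UMIs, at 3.65%. Its part in the large bowel values of the subsets was not tested. Subtracting 10% of each sum was tried for fibroblasts as a whole. That left 19 members higher in the large bowel, beside 2496 of 18847 genes.

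**Figure D4:**
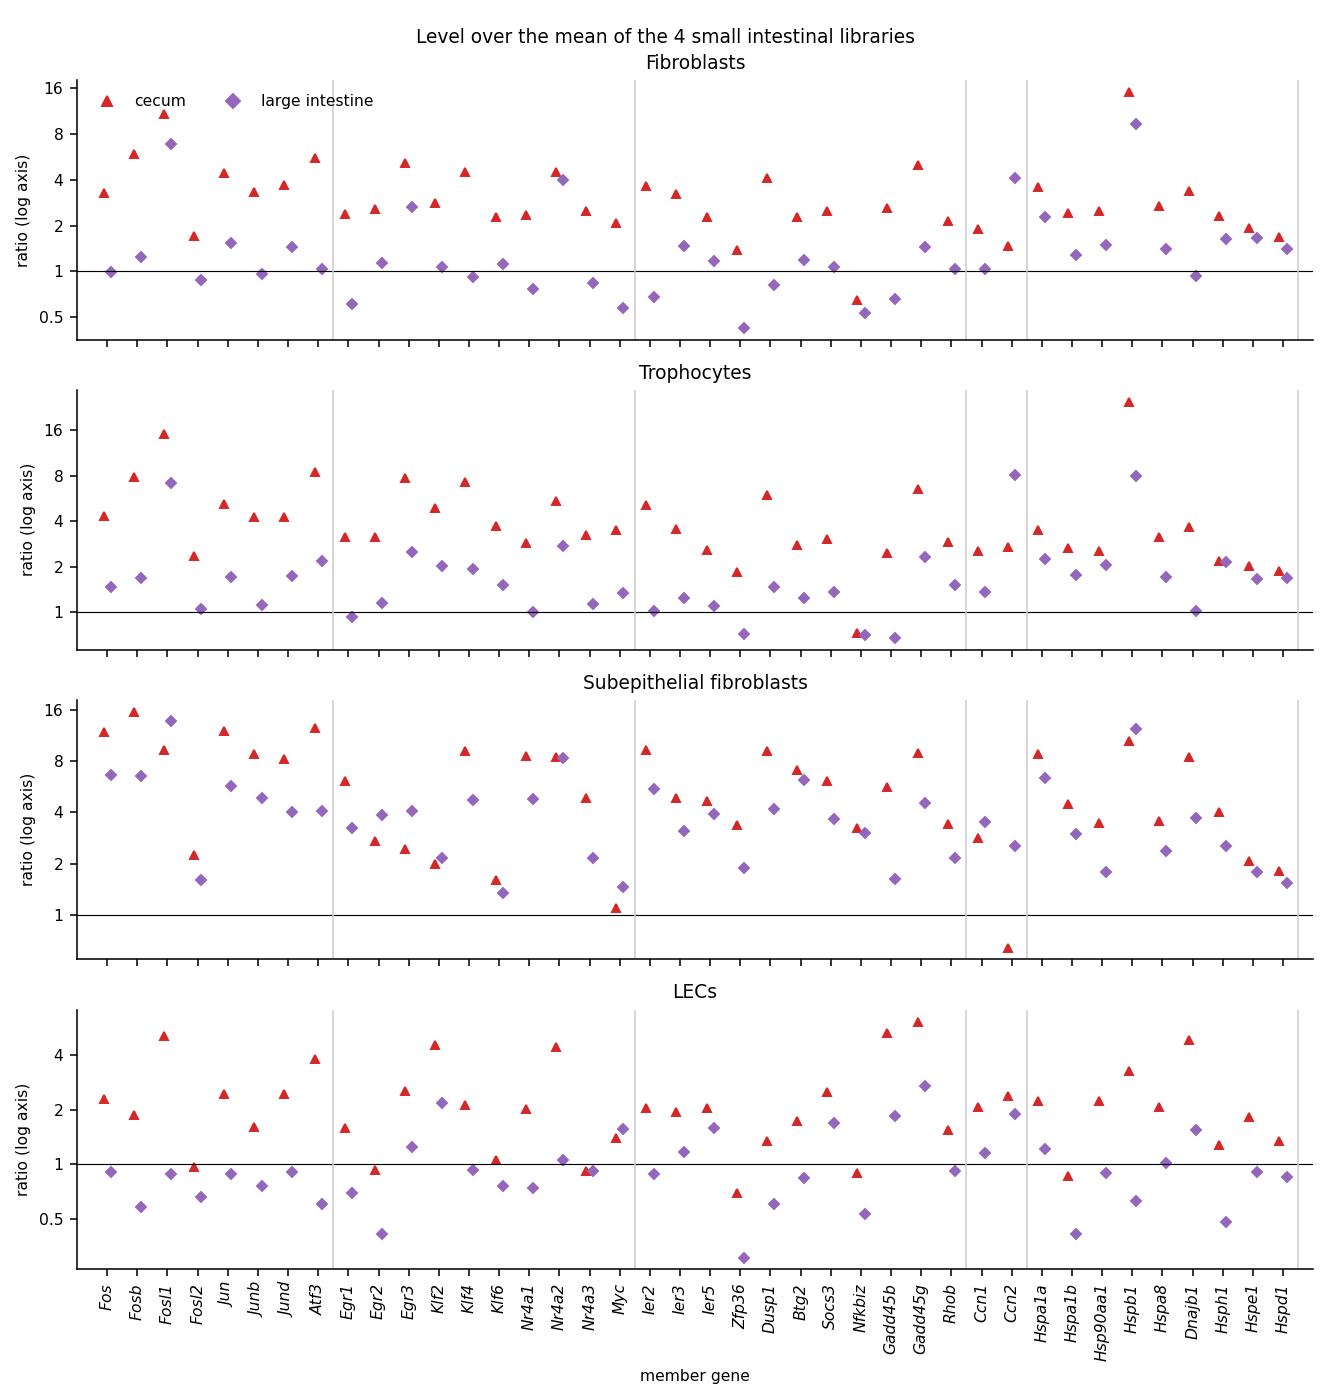
Ratio of each member's level in the cecum (triangles) and the large intestine (diamonds) to its mean over the 4 small intestinal libraries (log axes), in fibroblasts, trophocytes, subepithelial fibroblasts and LECs, with grey lines between roles. Cecal values lie above 1 for 39 of 40 members in fibroblasts, with Nfkbiz below, and values of both libraries are widely raised in subepithelial fibroblasts, at medians of 5.24 and 3.69.

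In LECs of the large bowel 11 of 39 tested members were higher, against 6.37% of 14191 genes. Lower was 1 member, Zfp36 (log2 difference -1.08, edgeR adjusted p = 0.0491), against 8.37% of genes. Zfp36 stood at 0.696 of the small intestinal mean in cecal LECs and at 0.307 in large intestinal ones. Only the large intestine lay below every small intestinal library for this gene. After subtracting free RNA, with a stricter marker gate or without proximal SI replicate 2, 0 members were lower. DESeq2 called 18 members higher, beside 880 of 13365 genes, and the replicate number as a block gave 21, beside 1137 of 14191. The unnumbered cecum and large intestine were set as replicate 1 in that block too. The sums rested on 232 cecal and 263 large intestinal LECs. Cecal LECs exceeded all small intestinal libraries in 32 members (34.4% of all genes) and those of the large intestine in 8 (33.2%). Large intestinal LECs lay below all small intestinal libraries in 11 members (39.5% of all genes), among them Dusp1, Zfp36, Hspa1b and Hsph1. Cecal LECs lay below them in 0 members, a count for which no share of all genes was taken. The median member ratios were 2.05 and 0.899. Without the cecum 3 members were higher (2.08% of all genes), and without the large intestine 18 (1.98%). Leaving out proximal SI replicate 1 gave 7 (784 of 12701 genes), distal SI replicate 1 gave 19 (1967 of 15036) and distal SI replicate 2 gave 18 (1189 of 12675).

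Gadd45g gave 206 and 96.2 CPM in cecal and large intestinal LECs against 24.7, 34.0, 37.3 and 39.4 CPM in the small intestine, a log2 difference of 2.04 ± 0.16 (SE, edgeR adjusted p = 0.00156). Klf2, a factor known in endothelium for its response to flow, gave 2512 and 1261 CPM against 564, 691, 480 and 465, a difference of 1.69 ± 0.15 (adjusted p = 0.00251). Gadd45b gave 402 and 149 CPM against 63.3, 74.8, 80.6 and 86.8, a difference of 1.66 ± 0.12 (adjusted p = 0.00133). In all 3 genes both large bowel libraries lay above the small intestinal range, the cecum further than the large intestine. The effects of the large bowel in LECs and in fibroblasts were then set against each other. The effect of the large bowel on Hspb1 was smaller in LECs than in fibroblasts by 2.95 on the log2 scale (adjusted p = 0.00706), and that difference of effects passed in 4 of 40 members (Hspb1, Hspa1b, Hsph1 and Egr3), a share near the 9.80% of all genes.

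Of the other early response genes 14 of 30 were higher and 0 lower in large bowel fibroblasts, led by Csrnp1 (1.49), Dusp5 (1.38) and Sik1 (1.38), and of the other chaperones 10 of 20 were higher and 0 lower, among them Cryab (1.30) and Dnaja1 (0.89). In LECs 5 early response genes were higher and 3 lower, with Tiparp lower (-1.41) and Rgs2 (1.35) and Dusp2 (1.34) higher. Of the chaperones 2 were higher in LECs, Hspb8 (1.91) and Hspa5 (0.77). Between proximal and distal SI none of these genes passed with edgeR, in fibroblasts (50 tested) or in LECs (49 tested).

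Finally, the spread of the members between cells of 1 class was measured after thinning every cell to 2500 UMIs. Cells of the same class and library differed widely. In small intestinal fibroblasts the immediate early share had a median of 0.360% to 0.680%, a 10th percentile of 0.120% to 0.160% and a 90th percentile of 2.80% to 3.88%. For the cecum these were 2.72%, 0.280% and 7.64%, and for the large intestine 0.560%, 0.160% and 3.20%. Removing the binomial counting error left a coefficient of variation of 1.12 to 1.39 in the small intestine, with the cecum at 0.845 and the large intestine at 1.17.

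The distribution was skewed, not uniform. The 25% of fibroblasts with the highest share held 66.6% to 73.2% of all immediate early UMIs in the small intestinal libraries and 55.5% in the cecum. Cells at or above 1% made up 26.8% to 42.5% of small intestinal fibroblasts, 71.6% of cecal and 36.3% of large intestinal ones. That limit cuts a range, since 7.19% to 10.4% of fibroblasts lay within 0.2 percentage points of it. In trophocytes the cells at or above 1% were 36.9% to 46.5% in the small intestine, 88.6% in the cecum and 61.2% in large intestinal cells, and in subepithelial fibroblasts 1.61% to 9.51% in the small intestine, with the cecum at 47.7% and the large intestine at 27.1%.

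Set against the fibroblast class, a mix of subsets of unlike share, LECs were less dispersed in the immediate early genes. Their median immediate early share was 1.04% and 1.40% in the proximal SI, 0.520% and 0.760% in the distal SI, with the cecum at 2.22% and the large intestine at 0.560%. That was above the fibroblast median in 3 of the small intestinal libraries and below it in distal SI replicate 1. The coefficients of variation, 0.765 to 1.14, lay below that of fibroblasts in each of the 6 libraries. For the heat shock genes 13.9% to 40.3% of small intestinal LECs were at or above 1%, against 1.19% to 2.14% of fibroblasts.

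**Figure D5:**
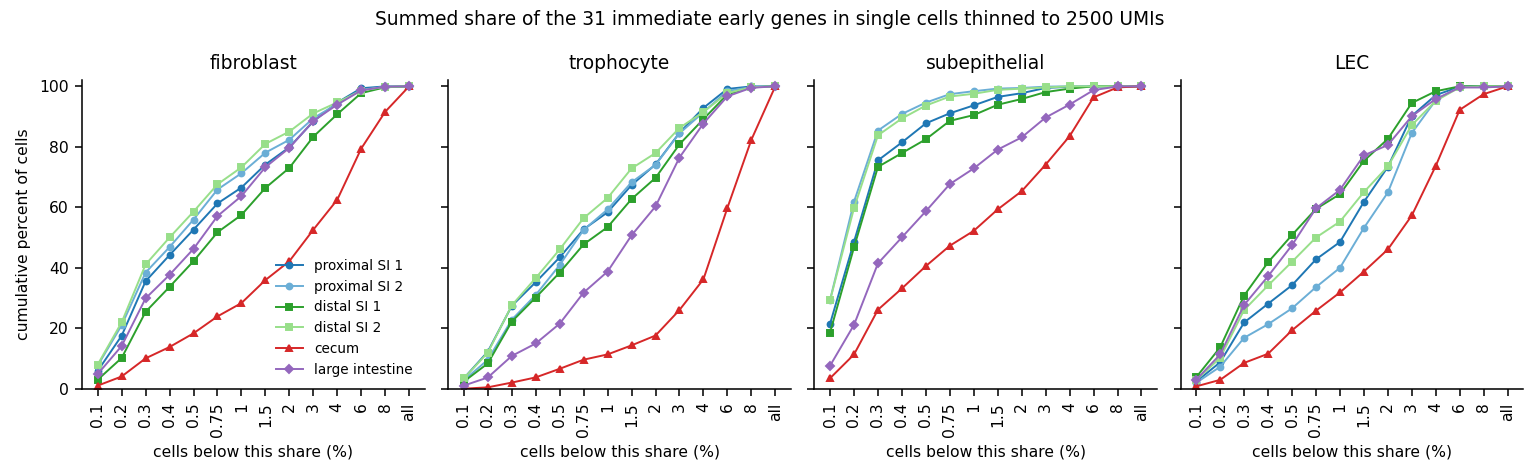
Cumulative percent of cells (vertical axis, 0 to 100) whose immediate early share lies below each limit (horizontal axis, percent of the 2500 UMIs kept per cell, unevenly spaced limits), with 1 line for each library. The cecal lines run lowest in all 4 classes, and small intestinal subepithelial cells lie mostly below 0.5%, with 1.61% to 9.51% of them at or above 1%.

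Cells high in one role tended to be high in the others. Across thinned fibroblasts, the summed AP-1 genes correlated with the summed feedback regulators at a mean r of 0.876 over the 6 libraries (0.830 to 0.902), with the other transcription factors at 0.833, with the heat shock genes at 0.538 and with the matricellular genes at 0.454. In LECs the values were 0.804, 0.722, 0.583 and 0.322. These values describe cells that share a library and are not tests, and roles with few UMIs give lower r by counting error alone. Fos and its family member Fosb correlated at a mean r of 0.598 in LECs, and Hspa1a and Hspa1b at 0.643.

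The immediate early share moved with measures of single cells and with a clear hashtag, though not alike in every class. Across fibroblasts of a library the immediate early share correlated with the mitochondrial share at r of -0.477 (cecum) to -0.191 (proximal SI replicate 2). With log UMIs r was 0.0565 to 0.160. In LECs these values were -0.174 to -0.0639 and -0.0895 to 0.104. Fibroblasts without a clear hashtag had the higher immediate early share in all 6 libraries. The values were 1.32% against 0.702% and 1.48% against 0.748% in the proximal SI, 1.83% against 1.13% and 1.10% against 0.811% in the distal SI, 4.34% against 3.22% in the cecum and 1.35% against 1.19% in large intestinal cells. Trophocytes showed the same direction in all 6 libraries, with 1.48% against 0.912% in proximal SI replicate 1, 1.40% against 1.15% in distal SI replicate 2 and 5.46% against 4.97% in the cecum. Within subepithelial fibroblasts the direction varied, with 0.174% against 0.213% in proximal SI replicate 2, 1.91% against 1.89% in the cecum and 0.978% against 1.06% in the large intestine. LECs went the other way wherever at least 50 untagged cells were found. Their values were 1.27% against 1.33% and 1.52% against 1.58% in the proximal SI, and 1.19% against 1.27% in distal SI replicate 2. The part of the hashtag staining in these results was not tested beyond repeating the class and large bowel comparisons in clearly tagged cells. There 33 members were lower in subepithelial fibroblasts than in trophocytes, beside 3646 of 14276 genes. In large bowel fibroblasts 32 members were higher, beside 2555 of 18570 genes.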

How the data were processed

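Deposited files were unfiltered UMI count matrices, which the authors made with Cell Ranger (version 8.1.0 in the submitters' processing notes) on mm39 with tdTomato added (Chromium 3′ v3.1). The deposited counts precede the authors' doublet removal and ambient RNA correction. No column of per-sample values was left unused.

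The barcode limits given with the results follow the study's methods, and cells passing more than 1 marker gate were left out. Doublets marked by Scrublet (4.90% to 11.3% of cells) were removed only as an alternative. Counts were summed per library and class and tested with edgeR 4.0.16 (quasi-likelihood, TMM, filterByExpr with minimum count 10, adjusted p under 0.05), with DESeq2 1.42.0 and limma-voom 3.58.1 as alternatives. Standard errors are absolute log2 fold changes divided by the square root of F. A clear hashtag led the next by 3-fold. The fits were checked on simulated data. Python was 3.11.15, scanpy 1.11.5 and R 4.3.3.

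Members, lists and subsets were chosen with earlier results of these data known, and gate limits after marker counts had been seen. Values in full were given for the 3 members per comparison and direction with the largest passed change that moved one way in every library or did not overlap, and for the 2 most abundant members per role. Depth limits scarce genes such as Fosl1, and single sums carry counting error in addition.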

Additional observations from a re-analysis of the deposited data

Results flagged for a closer look

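In 2 of the 37 groups of 4 small intestinal libraries checked, 1 library lay far from the other 3, where chance gives about 1 in 20 groups. The LEC minus fibroblast difference of Hsph1 was 3.34 on the log2 scale in proximal SI replicate 2, against 2.66 to 2.73 in the others. The subepithelial minus trophocyte difference of Nfkbiz was -4.66 in that same library, against -3.76 to -3.57.

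The effect of the large bowel differed between LECs and fibroblasts, by a test of the difference itself, for Hspb1 (-2.95), Hspa1b (-1.51), Hsph1 (-1.30) and Egr3 (-1.08), each a log2 effect in LECs minus that in fibroblasts. These are 4 of 40 members, near the 9.80% of all genes for which that difference passed. The effect also differed between subepithelial fibroblasts and trophocytes. It was larger in subepithelial fibroblasts for Nfkbiz (2.21), Nr4a1 (1.92), Fos (1.91), Btg2 (1.87), Junb (1.71), Dnajb1 (1.63), Jun (1.61), Ier5 (1.40), Gadd45b (1.38), Socs3 (1.26) and Jund (1.08), and smaller for Ccn2 (-1.87), which makes 12 of 40 members, beside 9.31% of all genes. Ccn2 gave 219 CPM in large intestinal trophocytes against 13.0 to 38.2 CPM in the small intestine.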

How the results depend on the processing

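All 15 members given by the rule for largest change kept their direction and stayed past the threshold in every alternative fitted. Their sizes moved more. The LEC minus fibroblast difference ran from 4.06 to 9.40 for Hspb1 but from 2.49 to 3.17 for Hsph1. The subepithelial minus trophocyte difference ran from -9.17 to -3.23 for Ier2 and from -8.19 to -3.69 for Klf4. In large bowel fibroblasts that of Hspb1 ran from 3.02 to 7.09. For LECs against fibroblasts the higher members numbered 13 to 24 with 1 library left out, and 24 higher and 4 lower with clearly tagged cells only. The fits on tagged cells and on 1 fibroblast subset were chosen after seeing the data. For proximal against distal LECs DESeq2 and the fit without a count filter gave 5 higher members where the reported count was 0. The genes called higher were 11 of 10429 and 87 of 24739. With the replicate number as a block, 1 member was higher in proximal LECs and 0 in fibroblasts, beside 24 of 15741 and 162 of 19273 genes. Same-numbered small intestinal libraries carried the same hashtags, HT0301 to HT0303 for replicate 1 and HT0304 to HT0306 for replicate 2. The cecum and the large intestine carried those of replicate 1. For each gene, the deviation of replicate 1 from the mean of its region was taken in the proximal and in the distal SI. Over genes these deviations correlated at 0.357 in fibroblasts (19273 genes) and 0.156 in LECs (15741 genes). With 2 pairs of libraries, these values cannot decide whether same-numbered libraries are pairs. The reported tests of regions used no block, and whether same-numbered libraries share mice was not tested.

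For fibroblasts of the large bowel the higher members (21 as reported) numbered 6 to 36 with 1 library left out, 32 with DESeq2, 25 with the replicate block, 37 in trophocytes only, 37 in subepithelial cells only (33 with the cecum also left out) and 32 in clearly tagged cells. The lower members (0 as reported) numbered 0 to 2 with 1 library left out, and 1 with limma-voom, DESeq2, no count filter, no TMM, the stricter gate, the replicate block or trophocytes only. For LECs of the large bowel the higher members (11 as reported) numbered 3 to 19 with 1 library left out, 18 with DESeq2 or no count filter and 21 with the replicate block. The lower members (1 as reported) numbered 0 to 3 with 1 library left out, 3 with no count filter and 0 after ambient subtraction or with the stricter gate. In large bowel fibroblasts DESeq2 called 3331 of 19814 genes higher, the block 3774 of 19814 and tagged cells 2555 of 18570. In LECs DESeq2 called 880 of 13365 genes higher, no count filter 1476 of 24739 and the block 1137 of 14191. Genes called lower in the fibroblast fits named with 1 lower member numbered 2709 to 3805. In LECs they were 2578 with no count filter, 1125 after ambient subtraction and 867 with the stricter gate. The cause of these changes was not tested beyond the libraries named in the results.

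Of the small intestinal means, those that moved by more than the spread between libraries did so with the stricter gate. Means were not recomputed in clearly tagged cells, where the immediate early share of the 4 small intestinal libraries was 0.702% to 1.13% in fibroblasts and 0.912% to 1.24% in trophocytes. With the stricter gate the immediate early share of trophocytes came to 1.82% and the heat shock share to 0.250%. The coefficients of variation came to 0.880 (immediate early) and 0.614 (heat shock) in subepithelial fibroblasts, over 3 libraries, and to 0.973 and 1.00 in trophocytes. Over all genes DESeq2 and the block raised the proximal against distal counts in fibroblasts from 0 higher and 1 lower to 71 and 54, and to 162 and 112. For fibroblasts of the large bowel, leaving out 1 library gave 1524 to 4662 genes higher and 1075 to 4428 lower, against 3000 and 2959, and for LECs 317 to 1967 and 386 to 2478, against 904 and 1188. Depth limits the scarcest members.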

Other observations

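Other early response genes rose and fell with the members between single fibroblasts. In each of the 6 libraries 21 to 23 of the 23 to 25 listed genes detected widely enough correlated with the summed immediate early share at an r of at least 0.1, where 3.78% to 8.98% of all other genes did. Ppp1r15a, which encodes a phosphatase subunit that restores translation after stress, had the highest mean r, at 0.618, followed by Cebpd at 0.534 and Phlda1 at 0.503. Of 19 other chaperones 7 to 9 reached 0.1, with Hspa5, the chaperone of the endoplasmic reticulum, at 0.489. These values describe cells of shared libraries and carry no test.

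Barcodes with at least 10% mitochondrial UMIs, left out of every comparison, held an immediate early share of 0.841% to 1.11% in 5 libraries and 0.260% in the cecum, where the value rests on 4 barcodes with 14605 UMIs.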
